A study of Mus musculus with 16 samples.

Results

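Hearts taken 72 h after the start of reperfusion were compared with hearts taken 6 h after it. The groups were taken from the sample labels, 4 arrays labelled as ischemia/reperfusion treated for 72 h and 4 labelled as treated for 6 h, which are 8 of the 16 arrays of the series. The other 8 arrays are 4 at 24 h and 4 of sham-operated mice, and they entered the fit and are given as context. All mice were C57BL/6 males 10 weeks old. In the reperfused groups the left anterior descending coronary artery was tied for 30 min and released. The sham label gives no hours after surgery. RNA came from heart tissue, so an array reads the mixture of injured, border and unaffected muscle with whatever cells had entered it, and fewer cells of a type and less RNA per cell cannot be told apart. The labels name no transgene or drug, no clock time of surgery or collection, and no batch. Nothing in them says whether each array is 1 animal, so the p-values below measure the spread between arrays as labelled.

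Reperfusion of an infarcted heart starts a repair sequence with overlapping stages. In the early hours, dying myocytes, stressed survivors and vessel walls switch on immediate early genes, cytokines, chemokines and adhesion molecules, and neutrophils arrive. Over the following days monocytes enter and become macrophages that clear debris, while fibroblasts and other non-myocytes divide and lay down collagen. The comparison of 72 h with 6 h sets the later stage against the earlier one.

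Values are the authors' log2 levels of the probe set with the highest mean for each of 19505 named genes, and every difference below is the 72 h mean minus the 6 h mean in log2 units, so that 1 unit is 2-fold. The log base is not stated in the labels and was taken as 2. The highest value, 19.82, lies above what a log2 of a scanner reading can reach, so the scale of the differences is uncertain. Differences were tested with limma over all 16 arrays, with Benjamini-Hochberg adjustment over the 19505 genes and a threshold of 0.05. The median SE of a difference was 0.183. At 72 h 3409 genes (17.5%) were higher than at 6 h and 2550 (13.1%) were lower, 5959 (30.6%) in all. With a change of at least 2-fold as well, 1463 genes (7.5%) were higher and 700 (3.59%) were lower. The 4 arrays at 72 h lay wholly above the 4 at 6 h for 3338 genes (17.1%) and wholly below for 2617 (13.4%). The share of measured members of a list that passed has to be read against these percentages. The lists and their members were chosen with earlier results of these data known, so such a share is a description and not a test.

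The zero of the scale depends on how the arrays are set against each other, and this touches small differences. The hybridization spike-in controls averaged 10.04 ± 0.14 at 72 h and 10.76 ± 0.05 at 6 h, and the poly-A spike-in controls 6.65 ± 0.19 at 72 h and 7.18 ± 0.12 at 6 h (SD, n = 4 each; 2-sided exact permutation p = 0.0286 for each, the smallest that 4 against 4 allows, adjusted p = 0.0343 over 6 array measures). The controls did not all move the same way. The median of the 1324 positive controls was higher at 72 h by 0.269, and that of the 5222 negative controls lower by 0.171 (exact permutation p = 0.0286 for each, adjusted p = 0.0343). The arrays were not centred on these 2 sets. With the arrays centred on the hybridization controls, 13629 genes were higher and 479 lower at 72 h, so that 96.6% of the calls were rises against 57.2% in the values as deposited. Centring on the poly-A controls gave 9167 higher and 621 lower (93.7% rises), and centring on the median named gene gave 2692 higher and 4440 lower (37.7% rises). The median difference of all genes was -0.06 as deposited, 0.66 with the hybridization controls, 0.47 with the poly-A controls and -0.20 with median centring. All 14 markers of T, B and NK cells lay under the background level described next at both times, and with the hybridization controls all 14 came out higher at 72 h. Each centring adds the same amount to every gene, at most 0.716 in size, so larger differences keep their direction under all of them. Where the median of a pathway list, or of the endothelial or sarcomere markers, changed sign, the sentence on that list says so, and the other marker lists whose median did are named with them.

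No detection call is given per probe set. As a stand-in, a level of 6.763, which 75% of the negative control signals do not exceed, is called the background level below. A gene whose mean in 1 of the groups lies under it has a level there that cannot be told from background, and the size of its difference is then uncertain.

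**Figure D1:**
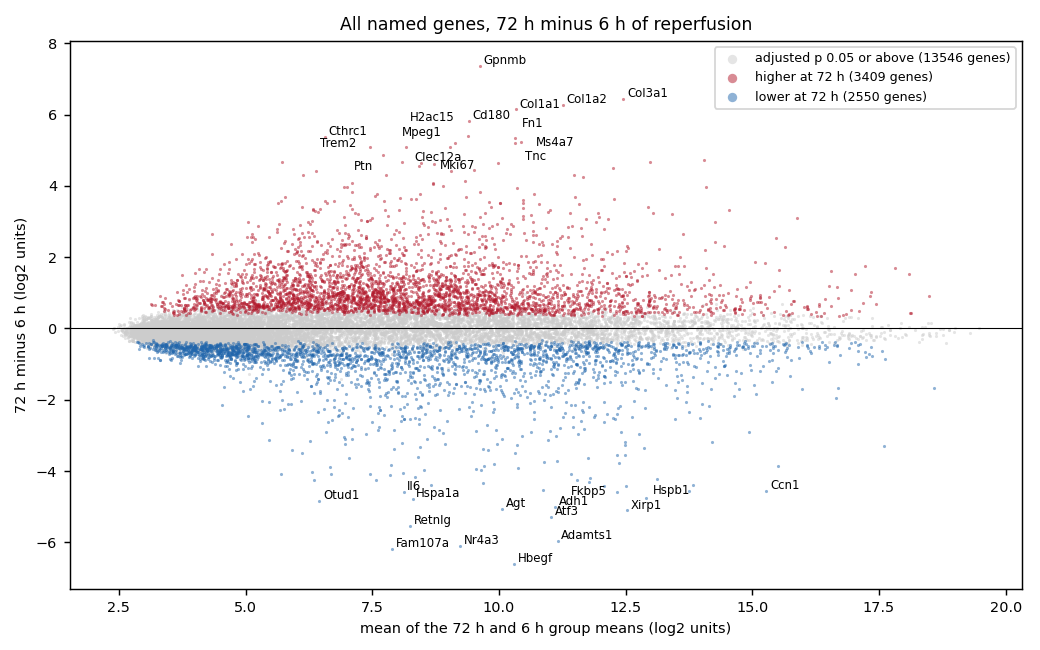
Each point is 1 of the 19505 named genes, with the mean of its 72 h and 6 h group means on the horizontal axis and the 72 h minus 6 h difference on the vertical axis, both in log2 units. Red marks the 3409 genes higher and blue the 2550 genes lower at 72 h at adjusted p under 0.05, and the labels name the 15 largest rises and 15 largest falls of the naming rule, led by Gpnmb at 7.37 and Hbegf at -6.60.

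The 15 largest falls of the naming rule were all of genes that stood above sham at 6 h by the test. Hbegf, a heparin-binding growth factor of the EGF family, read 7.29, 6.38, 6.85 and 7.49 at 72 h, against 13.65, 13.56, 13.39 and 13.81 at 6 h. No array of 1 time came near those of the other, and the difference was -6.60 ± 0.43 (SE; adjusted p = 1.7e-09). Its mean at 72 h differed from that of sham hearts by 0.65 ± 0.43 (SE; adjusted p = 0.32), which did not pass. Adamts1, a protease that cuts the proteoglycans of the matrix, read 7.68, 8.72, 7.85 and 8.47 at 72 h, against 13.82, 14.30, 14.68 and 13.75 at 6 h, with a difference of -5.96 ± 0.31 (SE; adjusted p = 7.6e-11). Agt, the precursor of angiotensin, read 7.82, 7.50, 7.74 and 7.06 at 72 h, against 12.50, 13.46, 12.29 and 12.10 at 6 h, with a difference of -5.06 ± 0.24 (SE; adjusted p = 2.0e-11). Adh1, an alcohol dehydrogenase that oxidizes retinol, averaged 8.60 ± 0.44 at 72 h and 13.61 ± 0.22 at 6 h (SD, n = 4 each), a difference of -5.01 ± 0.34 (SE; adjusted p = 2.1e-09). The groups did not overlap for any of these genes. Fam107a, an actin-binding protein induced by stress, and Otud1, a deubiquitinase, also fell, with differences of -6.19 and -4.84, and both lay under the background level at 72 h.

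Immediate early transcription factors are made within minutes of a stimulus without new protein synthesis, and their messages are short-lived. Of 22 measured members, 16 fell at 72 h and 0 rose, against 13.1% and 17.5% of all genes, and the median difference was -1.75. Nr4a3, an orphan nuclear receptor, read 6.44, 6.34, 5.93 and 6.02 at 72 h, against 11.89, 12.91, 11.90 and 12.44 at 6 h. The difference was -6.10 ± 0.28 (SE; adjusted p = 1.7e-11), and at 72 h the gene lay below its sham mean of 8.37. Atf3, a stress-induced repressor of the ATF/CREB family, read 8.46, 8.19, 8.21 and 8.69 at 72 h, against 13.64, 14.45, 14.16 and 12.47 at 6 h, a difference of -5.29 ± 0.39 (SE; adjusted p = 5.6e-09). Myc, which drives growth and ribosome production, read 7.92, 8.01, 6.46 and 7.70 at 72 h, against 12.20, 11.55, 12.44 and 11.23 at 6 h. Its arrays did not overlap, the difference was -4.33 ± 0.43 (SE; adjusted p = 2.9e-07), and at 72 h it was still above the sham mean of 5.36, by 2.17 ± 0.43 (SE; adjusted p = 0.00111). Fosb, an AP-1 subunit, changed by -4.08 (adjusted p = 4.6e-09), Egr1, a zinc-finger factor, by -3.72 (adjusted p = 1.4e-05) and Maff, a small Maf protein, by -3.40 (adjusted p = 2.3e-09). Fos itself was uneven at 6 h, where replicates 8 and 10 read far above replicates 7 and 11, with 5.77, 5.62, 5.46 and 5.99 at 72 h, against 6.25, 9.87, 9.93 and 5.91 at 6 h, and its difference was -2.28 ± 0.65 (SE; adjusted p = 0.0117). Without replicate 10 at 6 h it was -1.63 (adjusted p = 0.0539), so that Fos no longer passed. Jun did not pass the test, at -0.81 (adjusted p = 0.0846), but it passed with quantile normalization (adjusted p = 0.0498) and median centring (adjusted p = 0.0368), without replicate 7 at 6 h (-1.11, adjusted p = 0.0198) and without replicate 11 at 6 h (-1.13, adjusted p = 0.0151). Nr4a2 did not pass as deposited, at 0.21 (adjusted p = 0.395). At 6 h 18 of the 22 members were above sham and 0 below, against 7.92% and 12.3% of all genes. At 72 h 2 were above sham and 1 below, against 11.5% and 10.3% of all genes. These sham comparisons share the sham arrays with each other and the reperfused arrays with the comparison of 72 h with 6 h.

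**Figure D2:**
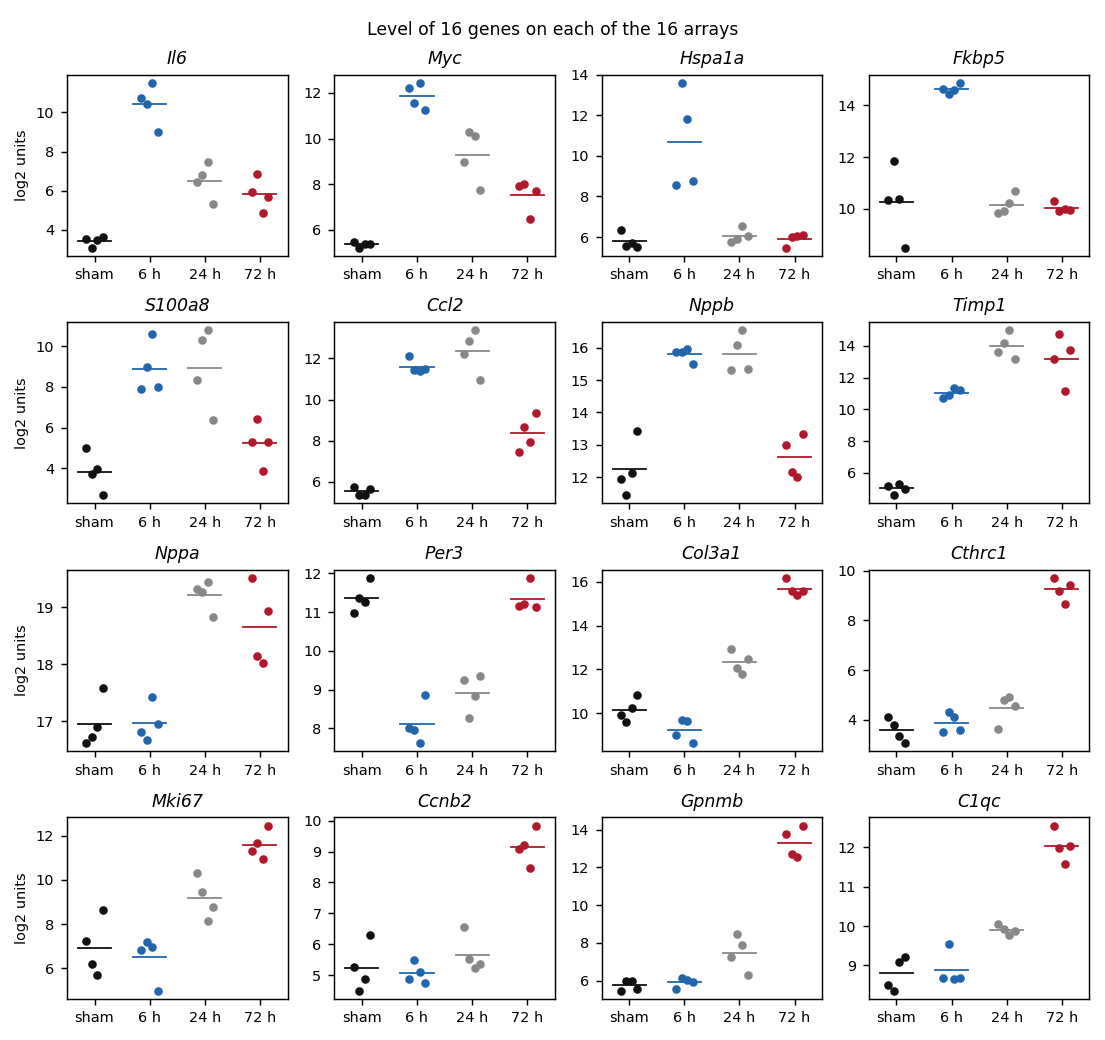
Each panel shows 1 of 16 genes, with a point for each of the 16 arrays in log2 units and a bar at the mean of the 4 arrays of sham, 6 h, 24 h and 72 h. Il6, Myc, Hspa1a and Fkbp5 stand high at 6 h and lower at 72 h, Timp1 and Nppa reach their highest mean at 24 h, where 1 array (replicate 16) is far higher in the atrial marker Myl4, and Col3a1, Cthrc1, Mki67, Ccnb2, Gpnmb and C1qc stand highest at 72 h.

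Cytokines of the IL-6 and IL-1 families signal tissue damage to leukocytes and to the surviving muscle. Of 21 measured genes of these families with TNF and selected receptors, 12 fell and 0 rose, with a median of -0.999. Il6 read 5.94, 6.85, 4.84 and 5.67 at 72 h, against 10.71, 10.41, 11.51 and 8.99 at 6 h, without overlap. The difference was -4.58 ± 0.47 (SE; adjusted p = 4.2e-07), and although the 72 h mean lay under the background level it was above the sham mean of 3.42. Il1b, the secreted IL-1 form of myeloid cells, read 6.96, 7.70, 5.71 and 7.03 at 72 h, against 10.03, 8.09, 10.11 and 9.01 at 6 h, a difference of -2.45 ± 0.51 (SE; adjusted p = 9.8e-04). Several receptors fell too. Tnfrsf12a, the receptor of TWEAK, changed by -3.54 (adjusted p = 1.2e-08), Il1r2, the decoy receptor of IL-1, by -2.83 (adjusted p = 2.5e-04), Osmr, the oncostatin M receptor, by -2.49 (adjusted p = 2.0e-09) and Il4ra, shared by IL-4 and IL-13, by -1.84 (adjusted p = 4.8e-04). The shared signal transducer Il6st did not pass, at 0.36 (adjusted p = 0.0534), but it passed with quantile normalization (adjusted p = 0.0297), both spike-in centrings, both filters on low levels, the trend (adjusted p = 0.0212), array weights (adjusted p = 0.038), and without replicate 22 at 72 h (0.41, adjusted p = 0.0413). With the hybridization controls the list held 7 members higher and 7 lower, although its median stayed negative at -0.28.

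AP-1, the dimer of Fos and Jun proteins, binds TGAGTCA. The RefSeq promoter windows used here run from 250 bases before to 50 bases after the annotated start (GRCm38.p6). Among 19 members of the IL-6, IL-1 and TNF list with a window, 4 held TGAGTCA on either strand, against 5.17% of 27025 windows. Of these, 2 passed the threshold and held a match wholly before the start. Each match is shown 5′ to 3′ on the gene's strand, with the motif in capitals.
Il6, chr5:30012864-30012896, plus strand: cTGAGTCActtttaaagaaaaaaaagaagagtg
Il1rn, chr2:24336694-24336750, plus strand: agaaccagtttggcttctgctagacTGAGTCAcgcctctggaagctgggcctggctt
Il1rn, the IL-1 receptor antagonist, changed by -1.11 (adjusted p = 0.0354), a call that was lost without 1 or another of 6 of the 8 arrays (adjusted p = 0.0549 to 0.104) and with either set of spike-in controls. None of the 17 immediate early genes with a window held TGAGTCA or the cyclic AMP element TGACGTCA, the second of which occurred in 1.88% of all windows. A match is a match of letters and does not show binding.

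Chemokines, the small proteins that draw leukocytes, went both ways. Of 26 measured, 9 fell and 5 rose. The median of -0.19 turned to 0.53 with the hybridization controls and 0.33 with the poly-A controls. Of the neutrophil attractants, Cxcl1 was at -3.49 (adjusted p = 1.2e-08), Cxcl2 at -3.16 (adjusted p = 4.5e-07) and Cxcl3 at -1.28 (adjusted p = 1.9e-04), the last under background at both times, while Ppbp did not pass as deposited, at 0.72 (adjusted p = 0.287). Cxcl5 read 8.34, 8.65, 7.39 and 8.09 at 72 h, against 11.24, 10.19, 11.43 and 11.11 at 6 h, a difference of -2.88 ± 0.46 (SE; adjusted p = 6.7e-05). The other falls were Ccl7 (-1.90), Ccl11 (-1.86), Ccl17 (-1.30), Ccl5 (-0.51) and Ccl2, of which Ccl5 did not pass without 1 or another of 4 of the 8 arrays (adjusted p = 0.053 to 0.0948), with quantile normalization or with either set of spike-in controls. Ccl2, which draws monocytes through Ccr2, read 7.43, 8.69, 7.96 and 9.35 at 72 h, against 12.09, 11.41, 11.36 and 11.47 at 6 h. The groups did not overlap, the difference was -3.23 ± 0.41 (SE; adjusted p = 5.3e-06), and the 24 h mean was 12.33. The 5 chemokines that rose were Ccl8 (2.99), Ccl21a (2.62), Cxcl16 (2.61), Cxcl12 (1.85) and Cxcl13 (1.28), of which the last 3 are named because they complete the count. Ccl8 lay under the background level at both times. Ccl21a belongs to a family of near-identical copies in the mouse, so its probe set may read several of them.

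Feedback genes of NF-kB, the factor that carries cytokine and danger signals into the nucleus, fell in part. Of 13 measured, 6 fell and 0 rose. The median of -0.45 turned to 0.27 with the hybridization controls and 0.08 with the poly-A controls. Nfkbia, the inhibitor that NF-kB induces against itself, changed by -2.11 (adjusted p = 1.6e-06), Rel by -1.49 (adjusted p = 2.4e-04), the apoptosis inhibitor Birc3 by -1.10 (adjusted p = 6.8e-04) and Nfkbiz by -1.09 (adjusted p = 0.00448). With the hybridization controls Birc3 and Nfkbiz did not pass. Rela, the main activating subunit, did not pass as deposited, at -0.27 (adjusted p = 0.189).

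Endothelium that meets cytokines displays selectins and coagulation genes. Of 16 such genes, 6 fell and 2 rose, and the median of -0.35 turned to 0.36 with the hybridization controls and 0.17 with the poly-A controls. Selp, P-selectin, read 6.44, 7.93, 6.20 and 6.58 at 72 h, against 10.12, 10.28, 10.64 and 9.40 at 6 h, a difference of -3.33 ± 0.47 (SE; adjusted p = 1.9e-05). Sele, E-selectin, changed by -2.23 (adjusted p = 1.9e-05), the urokinase receptor Plaur by -3.39 (adjusted p = 2.4e-05), Ptgs2, the inducible prostaglandin synthase, by -2.96 (adjusted p = 1.0e-07), thrombomodulin (Thbd) by -2.83 (adjusted p = 1.5e-07) and the vessel destabilizer Angpt2 by -1.65 (adjusted p = 1.8e-04). The 2 that rose were the protease urokinase (Plau, 1.55 (adjusted p = 6.8e-04)) and the adhesion molecule Vcam1 (0.65 (adjusted p = 0.0154)). Without replicate 10 at 6 h Vcam1 was at 0.56 (adjusted p = 0.0561). Neutrophil markers went the same way as the selectins. Of 13 measured, 9 fell and 0 rose, with a median of -1.58. Under background lay 11 of the 13 at 72 h, Retnlg and S100a8 among them, and 5 at both times, so the sizes of these falls are uncertain. Retnlg, a resistin-like gene of neutrophils, read 5.16, 6.25, 5.12 and 5.40 at 72 h, against 11.47, 10.34, 12.82 and 9.46 at 6 h, a difference of -5.54 ± 0.62 (SE; adjusted p = 1.3e-06). S100a8, a subunit of calprotectin, read 5.32, 6.41, 3.86 and 5.32 at 72 h, against 7.88, 8.97, 10.61 and 8.02 at 6 h. The spread within each time was wide, the arrays did not overlap, and the difference was -3.64 ± 0.79 (SE; adjusted p = 0.00138). S100a9, Cxcr2 and Mmp8 changed by -3.03, -2.49 and -2.37. The granule genes Camp and Ltf of immature neutrophils lay under background at both times, with 3.46 at 72 h and 3.39 at 6 h for Camp and 3.66 at 72 h and 3.56 at 6 h for Ltf. The mean of the list, relative to its sham mean, ran from 0.43 to 1.58 at 72 h and 2.07 to 3.58 at 6 h.

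Genes that glucocorticoids induce showed the lowest median of the 32 pathway lists. Of 16 measured, 14 fell and 1 rose, with a median of -2.38. Fkbp5, a co-chaperone of the glucocorticoid receptor, read 10.31, 9.90, 9.99 and 9.97 at 72 h, against 14.61, 14.44, 14.59 and 14.87 at 6 h. Its 72 h mean lay close to the sham mean of 10.27, but the sham arrays were widely spread (SD 1.37, against 0.18 at 72 h). The difference was -4.58 ± 0.42 (SE; adjusted p = 9.8e-08). Pdk4, the kinase that shuts off pyruvate dehydrogenase, read 14.32, 12.70, 13.78 and 13.51 at 72 h, against 17.53, 17.17, 17.44 and 17.58 at 6 h, a difference of -3.85 ± 0.28 (SE; adjusted p = 5.5e-09). Cdkn1a, the cell cycle inhibitor p21, read 12.21, 11.23, 11.09 and 11.34 at 72 h, against 16.08, 16.15, 16.16 and 15.70 at 6 h, a difference of -4.55 ± 0.44 (SE; adjusted p = 1.8e-07). The 4 arrays of each time were well separated for all 3 genes. Lcn2, an iron-sequestering protein of neutrophils and stressed tissue, changed by -4.39 (adjusted p = 4.4e-06), Errfi1, a feedback inhibitor of EGF receptors, by -3.76 (adjusted p = 1.1e-09) and Mt2, a metallothionein, by -3.29 (adjusted p = 7.0e-06). Nr3c1, the receptor itself, was the 1 member that rose, at 0.77 (adjusted p = 5.0e-04). Several of these genes answer to other signals as well, and no hormone was measured.

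Heat shock proteins refold damaged proteins and are induced through HSF1. Of 15 measured, 11 fell and 0 rose, with a median of -0.64 that became 0.07 with the hybridization controls and -0.12 with the poly-A controls. Hspa1a, the inducible HSP70, read 5.49, 6.00, 6.07 and 6.08 at 72 h, against 8.58, 13.60, 11.82 and 8.74 at 6 h. Its 6 h arrays spanned 5 log2 units while the 72 h arrays were tight and under background, and the difference was -4.78 ± 0.72 (SE; adjusted p = 3.8e-05). Hspb1, the small heat shock protein HSP27, read 10.94, 10.60, 9.89 and 10.63 at 72 h, against 15.03, 15.26, 15.67 and 15.13 at 6 h, a difference of -4.76 ± 0.39 (SE; adjusted p = 2.2e-08), and was still at 15.10 at 24 h. Hspa1b, a near-identical copy of Hspa1a whose probes may not separate the copies, changed by -4.07 (adjusted p = 9.8e-05). Dnajb1 and Hsp90aa1 changed by -1.82 and -1.52. Abundant small heat shock proteins of the myocyte moved little, with -0.38 (adjusted p = 0.0845) for Hspb7 and -0.21 (adjusted p = 0.213) for Hspb6, and neither passed. Of 12 members with a promoter window, 7 held the heat shock element GAANNTTC, against 7.95% of all windows. The element nearest the start in the 2 genes with the largest fall is shown with its matches in capitals.
Hspa1a, chr17:34972228-34972285, minus strand: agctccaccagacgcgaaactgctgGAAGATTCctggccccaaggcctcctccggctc
Hspb1, chr5:135887797-135887854, plus strand: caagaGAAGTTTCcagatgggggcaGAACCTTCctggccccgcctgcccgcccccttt
The stretch of Hspa1b, at chr17:34959310-34959367, has the same letters as that of Hspa1a.

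Of 3 lists of growth and cell stress genes, that of ribosome biogenesis had mostly falls. Of 19 measured genes of ribosome biogenesis, 11 fell and 1 rose, the 1 rise being Npm1 (0.45 (adjusted p = 0.0424), lost without any of 7 of the 8 arrays), and the median of -0.69 was 0.03 with the hybridization controls and -0.17 with the poly-A controls. The pre-rRNA factor Rrp12 read 7.36, 7.35, 7.37 and 7.26 at 72 h, against 9.60, 10.24, 10.32 and 10.27 at 6 h, a difference of -2.77 ± 0.22 (SE; adjusted p = 1.2e-08), and Nop58, Wdr43 and Ddx21 changed by -1.85, -1.51 and -1.44. Of 17 genes of apoptosis and p53, 6 fell and 4 rose, and the median of -0.07 turned to 0.65 with the hybridization controls and 0.45 with the poly-A controls. Bcl2l1, the survival protein BCL-xL, read 9.84, 10.14, 9.23 and 10.24 at 72 h, against 14.13, 14.15, 14.32 and 14.48 at 6 h, a difference of -4.41 ± 0.25 (SE; adjusted p = 2.5e-10). The growth arrest gene Gadd45g changed by -3.93 (adjusted p = 8.4e-06), while the pro-death gene Bcl2l11 rose by 1.16 (adjusted p = 0.00133). Genes of ER stress and ATF4 gave 3 rises and 4 falls of 19, close to the shares of all genes, with Atf4 at -1.33 (adjusted p = 0.0011), Ddit4 at -1.62 (adjusted p = 0.0012) and the disulphide isomerase Pdia3 at 1.48 (adjusted p = 1.5e-05).

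Stretch and fetal genes of the myocyte fell in the main. Of 18 measured, 10 fell and 1 rose, with a median of -1.21. Xirp1, an actin-binding protein of the intercalated disc, read 9.95, 9.82, 10.10 and 10.03 at 72 h, against 14.75, 15.31, 15.23 and 15.04 at 6 h. The groups were far apart, and the difference was -5.11 ± 0.16 (SE; adjusted p = 1.8e-13). Ankrd2, a stretch-responsive ankyrin repeat protein, read 4.46, 4.02, 4.34 and 4.33 at 72 h, against 6.69, 10.28, 8.94 and 7.35 at 6 h, a difference of -4.03 ± 0.55 (SE; adjusted p = 1.3e-05), after a 24 h mean of 12.18. Flnc and Nmrk2 changed by -3.25 and -3.21. The paired natriuretic peptides moved apart. Nppb read 12.98, 12.14, 11.99 and 13.33 at 72 h, against 15.86, 15.86, 15.98 and 15.51 at 6 h, a difference of -3.19 ± 0.37 (SE; adjusted p = 1.6e-06), and its 72 h mean was near the sham mean of 12.23. Nppa read 19.52, 18.15, 18.02 and 18.93 at 72 h, against 16.82, 16.68, 17.43 and 16.95 at 6 h, a difference of 1.69 ± 0.28 (SE; adjusted p = 1.2e-04), with 16.96 in sham hearts. Nppa is a major product of atrial muscle, and 2 of the 72 h arrays, replicates 21 and 23, had more of the atrial light chain Myl4, which read 7.69, 9.76, 7.75 and 9.44 at 72 h, against 7.99, 7.89, 8.37 and 7.80 at 6 h. The highest Nppa values at 72 h were on replicates 20 and 23. Without replicates 21 and 23 Nppa still passed (adjusted p = 0.00105). At 24 h replicate 16 stood apart, with Myl4 at 15.22, against 7.34 to 7.93 on the other 24 h arrays, and Nppa there read 19.45, against 18.84 to 19.33 on the others. Other atrial genes, Myl7, Sln and Bmp10, lay under background at both 72 h and 6 h, so Myl4 is a narrow guide to atrial tissue. The part of atrial tissue in the Nppa result was not tested further. The myosin heavy chains Myh6 and Myh7 did not pass, at 0.16 (adjusted p = 0.403) and -0.16 (adjusted p = 0.651).

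Extracellular matrix genes were prominent among the rises. Fibrillar collagens are the load-bearing fibres of scar. Of 18 measured collagen chains, 12 rose and 1 fell, with a median of 1.42. Col3a1 read 16.17, 15.57, 15.39 and 15.58 at 72 h, against 8.98, 9.68, 9.64 and 8.63 at 6 h. The lowest 72 h array stood more than 5 log2 units above the highest 6 h array, and the difference was 6.45 ± 0.29 (SE; adjusted p = 1.4e-11). Col1a1 read 13.92, 13.49, 12.84 and 13.37 at 72 h, against 6.98, 7.62, 7.44 and 7.01 at 6 h, a difference of 6.14 ± 0.22 (SE; adjusted p = 9.9e-13). Col1a2, the partner chain of type I collagen, rose by 6.26 (adjusted p = 5.0e-11). Col5a1 and Col5a2, which set fibril diameter, rose by 3.57 and 3.39, though both lay under background at 6 h. The basement membrane chain Col4a2 was the 1 chain that fell, at -0.66 (adjusted p = 0.00281), and it was not among the falls with the hybridization or poly-A controls. At 72 h Col3a1 differed from sham by 5.54 ± 0.29 (SE; adjusted p = 1.9e-10), and at 6 h by -0.91 ± 0.29 (SE; adjusted p = 0.0304). It was the 1 chain below sham at 6 h by the test.

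Collagen is hydroxylated, trimmed and cross-linked before it bears load, and the enzymes rose with the chains. Of 15 measured, 12 rose and 0 fell, with a median of 1.36. Lox, a lysyl oxidase, read 12.37, 12.20, 11.43 and 12.63 at 72 h, against 8.54, 8.77, 8.76 and 9.09 at 6 h, a difference of 3.37 ± 0.24 (SE; adjusted p = 4.3e-09). Its relatives Loxl3 and Loxl1 rose by 4.15 (adjusted p = 3.1e-09) and 2.60 (adjusted p = 2.0e-08). The procollagen protease Bmp1 and its enhancer Pcolce rose by 2.30 and 3.001, and the collagen chaperone Serpinh1 by 2.17. All 8 small leucine-rich proteoglycans, which coat collagen fibrils, rose, with a median of 1.64. Lumican (Lum) read 15.54, 14.53, 15.07 and 14.93 at 72 h, against 11.79, 12.21, 12.18 and 11.09 at 6 h, a difference of 3.20 ± 0.26 (SE; adjusted p = 2.4e-08), and asporin (Aspn) and biglycan (Bgn) rose by 3.07 and 2.23. Fmod and Omd, also in this list, lay under background at both times.

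Matricellular and elastic fibre genes divided. Of 23 measured, 16 rose and 4 fell, with a median of 1.22. Cthrc1, made by activated fibroblasts, read 9.71, 9.20, 8.67 and 9.44 at 72 h, against 3.52, 4.32, 4.09 and 3.57 at 6 h. The gene was under background at 6 h, had a 24 h mean of 4.47, and differed by 5.38 ± 0.29 (SE; adjusted p = 1.1e-10). Postn, periostin, read 17.28, 15.53, 16.55 and 16.25 at 72 h, against 11.63, 11.67, 12.07 and 11.37 at 6 h, a difference of 4.71 ± 0.31 (SE; adjusted p = 1.8e-09). Fn1, fibronectin, and Tnc, tenascin C, rose by 5.34 (adjusted p = 5.8e-09) and 5.19 (adjusted p = 3.2e-09), and their 24 h means were 11.77 and 12.50. Ptn, the heparin-binding growth factor pleiotrophin, which is in no list but among the leading rises, rose by 4.85 (adjusted p = 2.0e-09). Mfap4, an elastic fibre protein, rose by 4.51 (adjusted p = 1.2e-07), and its 24 h mean of 9.86 was still at the 6 h level. The 4 falls were Ccn1, Ccn2, Ccn3 and Thbs1, of which the CCN proteins and thrombospondin 1 signal rather than build fibres. Ccn1 read 13.15, 12.94, 12.40 and 13.50 at 72 h, against 17.87, 17.74, 17.72 and 16.91 at 6 h, a difference of -4.56 ± 0.40 (SE; adjusted p = 5.9e-08). Thbs1 read 9.06, 10.30, 8.37 and 9.90 at 72 h, against 13.68, 13.75, 14.06 and 13.17 at 6 h, a difference of -4.26 ± 0.43 (SE; adjusted p = 3.2e-07). Ccn2 and Ccn3 changed by -4.43 and -0.98, and Ccn3 did not pass with either set of spike-in controls.

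Proteases and their inhibitors also went both ways. Of 23 measured, 11 rose and 6 fell. Mmp12, a macrophage elastase, rose by 4.01 (adjusted p = 8.3e-06). Adamts9 and Adamts4 fell with Adamts1, at -3.11 and -2.11. The 4 TIMPs, inhibitors of matrix proteases, parted in pairs. Timp1 read 13.16, 14.74, 11.19 and 13.72 at 72 h, against 10.74, 10.94, 11.33 and 11.26 at 6 h, so that 1 array at 72 h lay among those of 6 h, and its difference was 2.14 ± 0.50 (SE; adjusted p = 0.00274). Without replicates 21 and 23 at 72 h, the arrays with more Myl4, it was 1.11 (adjusted p = 0.0998). Those arrays also held the highest Timp1 values at 72 h. Timp2 rose by 1.93 (adjusted p = 2.1e-06). Timp3 and Timp4 changed by -2.27 (adjusted p = 5.6e-09) and -3.80 (adjusted p = 3.6e-07). Of 22 genes of the TGF-beta, activin and BMP families, 5 rose and 7 fell, and the median of -0.02 turned to 0.69 with the hybridization controls and 0.50 with the poly-A controls. The ligand Tgfb3 rose by 2.65 (adjusted p = 4.8e-07). The BMP ligand Bmp4 and the activin antagonist Fstl3 changed by -1.76 and -2.22.

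Fibroblast markers chosen apart from the collagen lists rose in 7 of 11 and fell in 0, with a median of 1.72. Htra3, Cd248 and Meox1 rose by 2.86, 2.75 and 2.35, while Ddr2 and Gsn did not pass, at -0.01 (adjusted p = 0.974) and 0.04 (adjusted p = 0.913). The mean of the list relative to sham ran from 0.72 to 1.24 at 72 h and -0.49 to -0.12 at 6 h, with no overlap, and was under sham on each 6 h array. The part of changes in fibroblast number in the collagen result was not tested. Smooth muscle and pericyte markers gave 4 rises of 12 and 0 falls. Tagln and Tpm2, actin-binding proteins shared with myofibroblasts, rose by 1.54 (adjusted p = 9.1e-05) and 1.74 (adjusted p = 2.3e-06). Acta2, smooth muscle actin, did not pass at 0.15 (adjusted p = 0.684).

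Genes of DNA replication and cell division rose together. Of 26 measured genes of mitosis, 26 rose and 0 fell, with a median of 2.74. Mki67, the proliferation marker Ki-67, read 11.29, 11.65, 10.94 and 12.45 at 72 h, against 6.84, 7.20, 6.96 and 4.99 at 6 h, a difference of 5.09 ± 0.57 (SE; adjusted p = 1.4e-06). Replicate 11 at 6 h was about 2 log2 units under the others. Ccnb2, a B-type cyclin, read 9.07, 9.20, 8.46 and 9.83 at 72 h, against 4.89, 5.49, 5.10 and 4.77 at 6 h, a difference of 4.08 ± 0.35 (SE; adjusted p = 3.8e-08). Plk1, a kinase of mitotic entry, and Ube2c, which tags mitotic proteins for destruction, rose by 3.97 (adjusted p = 4.0e-07) and 3.70 (adjusted p = 8.2e-09). Cdk1, the mitotic kinase, read 5.41, 6.04, 4.92 and 6.29 at 72 h, against 3.05, 3.40, 2.89 and 2.74 at 6 h, a difference of 2.65 ± 0.30 (SE; adjusted p = 1.4e-06), and lay under background at both times. In all, 25 of the 26 genes lay under background at 6 h and 9 at 72 h. Of 25 replication genes, 19 rose and 0 fell, with a median of 0.99. Under background lay 19 of the 25 at 6 h and 14 at both times, so the sizes of many of these rises are uncertain. Prim1, the primase, read 8.11, 8.89, 8.31 and 8.40 at 72 h, against 5.59, 5.62, 5.001 and 5.84 at 6 h, a difference of 2.91 ± 0.26 (SE; adjusted p = 7.9e-08). Its 6 h level lay under background. Rrm1, a ribonucleotide reductase subunit, and Mcm4, of the replicative helicase, rose by 1.96 (adjusted p = 1.7e-05) and 1.78 (adjusted p = 1.6e-05). The 24 h mean of Mcm4, 8.43, was above its 72 h mean, whereas that of Ccnb2, 5.67, was nearer to its 6 h mean. H2ac15, a histone gene of S phase, read 12.05, 11.99, 11.17 and 13.12 at 72 h, against 6.70, 6.97, 6.71 and 6.34 at 6 h, a difference of 5.40 ± 0.53 (SE; adjusted p = 2.2e-07). Its family members are close in sequence, so the probe set may read several.

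Promoters of mitotic genes often carry the cell cycle homology region TTTGAA, and those of replication genes the E2F sites TTTCGCGC, TTTGGCGC or TTTCCCGC. TTTGAA was found on either strand in 17 of 22 mitosis windows (77.3%), against 18.1% of all windows and 4 of 21 replication windows. E2F letters were found in 8 of 21 replication windows (38.1%), against 1.91% of all windows and 1 of 22 mitosis windows. CCAAT was found in 17 of 22 mitosis windows and 37.9% of all. Only matches lying wholly before the start were shown. They come from the 3 members of each list with the largest rise past the threshold among those that hold such a match. The nearest one is given, mitosis genes before replication genes, with every match in the stretch in capitals.
Mki67, chr7:135716447-135716502, minus strand: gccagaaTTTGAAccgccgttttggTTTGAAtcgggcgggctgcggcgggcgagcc
Ccnb2, chr9:70421691-70421746, minus strand: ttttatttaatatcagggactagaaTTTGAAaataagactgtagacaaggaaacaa
Ube2c, chr2:164769875-164769928, plus strand: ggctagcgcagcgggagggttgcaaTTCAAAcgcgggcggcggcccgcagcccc
Mcm5, chr8:75109335-75109392, plus strand: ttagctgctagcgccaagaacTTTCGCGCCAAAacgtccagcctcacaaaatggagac
Mcm6, chr1:128359720-128359777, minus strand: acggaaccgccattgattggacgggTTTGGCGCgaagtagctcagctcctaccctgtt
Cdc6, chr11:98907988-98908045, plus strand: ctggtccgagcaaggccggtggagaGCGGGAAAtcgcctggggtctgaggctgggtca
Mcm5, Mcm6 and Cdc6 rose by 1.74, 1.12 and 1.02. Cdc6 did not pass without replicate 7 at 6 h (0.94, adjusted p = 0.0642) or without replicate 21 (0.93, adjusted p = 0.0682) or 23 (0.91, adjusted p = 0.0749) at 72 h. In Mcm5 matches on both strands overlap. These windows were searched without a test. The lists were chosen for the function of their genes, but with earlier results of these data known.

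Most monocyte and macrophage markers rose. Of 19 measured markers of monocytes and macrophages, 14 rose and 1 fell, with a median of 2.69. Ms4a7, a membrane protein of macrophages, changed by 5.23 (adjusted p = 1.7e-10) and Mpeg1, a pore-forming protein, by 5.10 (adjusted p = 1.6e-08). Ccr2, the receptor for Ccl2 on recruited monocytes, read 12.52, 12.45, 11.67 and 12.64 at 72 h, against 8.91, 7.68, 8.35 and 8.60 at 6 h, a difference of 3.94 ± 0.46 (SE; adjusted p = 2.2e-06), and its 24 h mean was 12.20. Csf1r, the receptor macrophages need for survival, and Lyz2, lysozyme, rose by 3.26 (adjusted p = 6.2e-09) and 3.96 (adjusted p = 1.7e-09). The 1 marker that fell was Ly6c2 of inflammatory monocytes, at -0.72 (adjusted p = 0.00842), which was -0.004 with the hybridization controls. The mean of the list relative to sham ran from 2.67 to 3.54 at 72 h and 0.88 to 1.20 at 6 h. At 24 h the median over the arrays was 2.92 for this list and 2.68 for the neutrophil list. Cd180, a Toll-like receptor homologue, and Clec12a, an inhibitory lectin of myeloid cells, were among the 15 largest rises of the naming rule, at 5.83 (adjusted p = 9.2e-10) and 5.21 (adjusted p = 7.8e-10).

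**Figure D3:**
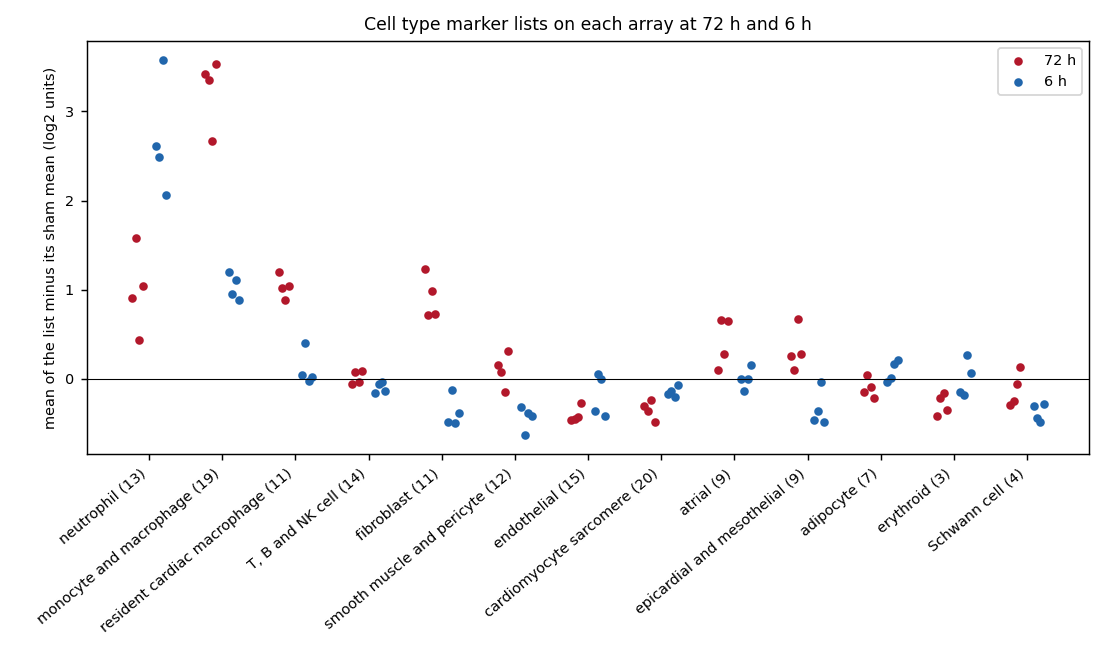
Points are the mean over a cell type's marker list on each array at 72 h (red) and 6 h (blue), minus the sham mean of the same list, in log2 units, with the number of genes in brackets. The neutrophil list lies from 0.43 to 1.58 at 72 h and 2.07 to 3.58 at 6 h, the monocyte and macrophage list from 2.67 to 3.54 at 72 h and 0.88 to 1.20 at 6 h, and the T, B and NK cell list near 0 at both times.

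Genes of lipid-laden, debris-clearing macrophages and of their lysosomes rose in 19 of 22 and fell in 0, with a median of 2.21. Gpnmb, a membrane glycoprotein of lysosomes, had the largest rise of the naming rule. It read 13.77, 12.69, 12.54 and 14.21 at 72 h, against 5.57, 6.14, 6.05 and 5.96 at 6 h, a difference of 7.37 ± 0.38 (SE; adjusted p = 7.0e-11), and its 24 h mean was 7.47. Trem2, a lipid receptor of macrophages, read 10.56, 10.25, 8.87 and 10.36 at 72 h, against 4.85, 4.99, 5.07 and 4.71 at 6 h, a difference of 5.10 ± 0.37 (SE; adjusted p = 4.7e-09). Both genes lay under background at 6 h and well above it on each 72 h array. Lgals3, galectin 3, and Ctss, cathepsin S, rose by 4.30 (adjusted p = 2.4e-07) and 4.26 (adjusted p = 1.8e-09). Apoe, which carries cholesterol out of macrophages, rose by 3.10 (adjusted p = 8.9e-11). Efferocytosis is the uptake of dead cells. Of 14 genes measured for it, 7 rose and 1 fell, with Stab1, Lrp1 and Abca1 at 1.84, 1.82 and 1.53. The receptor Mertk did not pass, at -0.24 (adjusted p = 0.328), and its levels of 8.58 at 72 h and 8.82 at 6 h were both above the sham mean of 7.24.

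Markers of resident cardiac macrophages did not move as a block. Of 11 measured, 6 rose and 2 fell. Lyve1, a hyaluronan receptor of resident macrophages and of lymphatic endothelium, read 9.62, 10.43, 9.80 and 9.37 at 72 h, against 12.47, 12.93, 12.28 and 12.69 at 6 h, a difference of -2.79 ± 0.27 (SE; adjusted p = 2.2e-07). The other fall was Cd163, a scavenger receptor, at -0.98 (adjusted p = 0.00243), which did not pass with either set of spike-in controls. Timd4 lay under background at both times, with levels of 5.85 at 72 h and 6.20 at 6 h. Igf1, a growth factor made by macrophages and fibroblasts, averaged 15.30 ± 0.45 at 72 h and 10.65 ± 0.48 at 6 h (SD, n = 4 each), a difference of 4.66 ± 0.27 (SE; adjusted p = 3.8e-10). Folr2 and Mrc1 rose by 1.56 (adjusted p = 4.3e-05) and 1.20 (adjusted p = 7.0e-06).

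Complement and antigen presentation rose. Of 14 complement genes, 12 rose and 0 fell, with a median of 1.64. C1qc, a chain of the C1q complex made by macrophages, read 12.55, 11.99, 11.59 and 12.03 at 72 h, against 8.69, 9.55, 8.66 and 8.67 at 6 h, a difference of 3.15 ± 0.23 (SE; adjusted p = 6.6e-09), and C1qa and C1qb rose by 2.94 and 2.80. C3ar1, the C3a receptor, and Cfp, properdin, rose by 3.67 (adjusted p = 5.4e-08) and 3.09 (adjusted p = 3.4e-07). Of 8 MHC class II genes, 7 rose and 0 fell, with H2-DMb1 at 2.56 (adjusted p = 5.5e-06), H2-Aa at 1.47 (adjusted p = 9.7e-04) and H2-Ab1 at 1.21 (adjusted p = 0.00328), the last of which was at 0.95 (adjusted p = 0.0715) without replicates 21 and 23 at 72 h. Under background at both times lay 4 of these 8 genes. Of 12 genes of class I processing, 7 rose and 0 fell. Psmb8, a catalytic subunit of the immunoproteasome, read 8.05, 8.14, 7.61 and 8.08 at 72 h, against 6.74, 6.57, 6.36 and 6.49 at 6 h, a difference of 1.43 ± 0.20 (SE; adjusted p = 1.6e-05), and B2m rose by 1.03 (adjusted p = 4.9e-04). Interferon-stimulated genes rose in 8 of 20 and fell in 0. Bst2, Oasl2 and Irf7 rose by 2.00, 1.94 and 1.64, while Ifit1 and Rsad2 did not pass, at -0.18 (adjusted p = 0.757) and -0.72 (adjusted p = 0.206). At 6 h replicate 7 stood apart for the whole list, whose mean relative to sham was 0.936 to 1.305 at 72 h, against 1.325 on replicate 7 and 0.202 to 0.311 on the other 3 arrays at 6 h. Without replicate 7, 11 of the 20 rose and 0 fell, with a median of 0.81, and neither Ifit1 (adjusted p = 0.532) nor Rsad2 (adjusted p = 0.8) passed.

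Lymphocyte markers stayed at background. All 14 T, B and NK markers measured lay under it at both times, with Cd3e at 5.12 at 72 h and 4.92 at 6 h and Ms4a1 at 3.98 at 72 h and 3.87 at 6 h. Ncr1 of NK cells was the 1 call, at 0.57 (adjusted p = 0.0232), and it was lost without any of 4 of the 8 arrays. Adipocyte markers, with Adipoq at 3.44 at 72 h and 3.57 at 6 h, also all lay under background (7 of 7). Epicardial and mesothelial markers gave 4 rises of 9, among them Upk1b and Upk3b at 1.804 and 1.65, with 8 of the 9 under background at both times, Wt1 included. Of 9 atrial markers, 3 rose and 1 fell, with a median of 0.59. The rises were Dkk3 (1.86, under background at both times), Tbx18 (0.72) and Pam (0.59), and the fall was Stard10 (-0.55, not passed without 1 or another of 4 of the 8 arrays, adjusted p = 0.0668 to 0.12, or with either set of spike-in controls), while Myl7, Sln and Bmp10 lay under background at both times. The mean of the atrial list relative to sham was 0.659 on replicate 21 and 0.646 on replicate 23 at 72 h, with 0.097 and 0.279 on the other 2 arrays at 72 h, against -0.133 to 0.157 at 6 h. Of 4 Schwann cell markers, 1 rose and 0 fell, with a median of -0.04. Cdh19 rose by 1.33 (adjusted p = 2.1e-04), and the other 3, Sox10 included, lay under background at both times. The median of the adipocyte markers turned to 0.58 with the hybridization controls and 0.39 with the poly-A controls, that of the Schwann cell markers to 0.67 with the hybridization controls and 0.48 with the poly-A controls, and that of the erythroid markers to 0.36 with the hybridization controls and 0.17 with the poly-A controls, while the T, B and NK cell median of 0.10 was -0.04 with median centring. The medians as deposited were -0.13 for adipocyte and -0.35 for erythroid markers.

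The vessel wall showed a mixed picture. Of 15 endothelial markers, 7 fell and 2 rose, and the median of -0.64 was 0.08 with the hybridization controls and -0.11 with the poly-A controls. Pecam1, the adhesion molecule CD31, read 12.80, 12.93, 13.04 and 13.33 at 72 h, against 14.12, 14.18, 13.94 and 13.65 at 6 h, a difference of -0.95 ± 0.19 (SE; adjusted p = 6.0e-04). Flt1, a VEGF receptor, and Robo4 changed by -1.08 (adjusted p = 6.2e-06) and -1.30 (adjusted p = 1.6e-04). Flt1 averaged 11.65 at 72 h and 12.73 at 6 h, and its sham mean was 12.49. Aplnr, the apelin receptor, went the other way and read 11.29, 10.82, 11.30 and 11.36 at 72 h, against 7.68, 7.53, 7.87 and 6.93 at 6 h. The difference was 3.69 ± 0.30 (SE; adjusted p = 2.2e-08), and the sham mean was 10.97, so that the low level was that of 6 h. With the hybridization controls neither Pecam1 nor Flt1 passed. Cdh5, Emcn and Kdr did not pass as deposited, at -0.32 (adjusted p = 0.156), -0.03 (adjusted p = 0.919) and 0.12 (adjusted p = 0.568).

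Clock genes changed in opposite directions. The clock is a loop in which Arntl and Clock activate Per and Cry genes that then repress them, and Dbp and Hlf are outputs of it. Of 18 measured, 10 fell and 4 rose, with a median of -0.98. Per3 read 11.16, 11.20, 11.88 and 11.14 at 72 h, against 8.00, 7.97, 7.62 and 8.85 at 6 h, a difference of 3.23 ± 0.27 (SE; adjusted p = 3.2e-08). Dbp read 16.60, 16.82, 16.99 and 16.71 at 72 h, against 14.37, 14.23, 13.92 and 15.52 at 6 h, a difference of 2.27 ± 0.28 (SE; adjusted p = 3.2e-06). Neither gene differed from sham at 72 h by the test, with sham means of 11.37 and 17.01, and both were below sham at 6 h. Per1 read 7.04, 7.15, 7.02 and 6.45 at 72 h, against 9.05, 9.11, 9.25 and 9.34 at 6 h, a difference of -2.27 ± 0.16 (SE; adjusted p = 4.6e-09). Ciart, a repressor of the loop, changed by -2.18 (adjusted p = 8.7e-05), Npas2 by -1.41 (adjusted p = 1.3e-05) and Arntl by -1.40 (adjusted p = 7.3e-04). Times of 6 h and 72 h differ by an amount that is not a whole number of days, and the hour of collection is not in the labels, so hour of day and time after reperfusion cannot be told apart here. Clock factors bind the E-box CACGTG. It was found in 5 of 16 clock gene windows, against 7.24% of all windows. It is shown in capitals for the 3 members with the largest change past the threshold that hold it wholly before the start. All 3 fell.
Per1, chr11:69098758-69098813, plus strand: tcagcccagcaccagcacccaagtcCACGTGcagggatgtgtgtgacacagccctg
Ciart, chr3:95882242-95882297, minus strand: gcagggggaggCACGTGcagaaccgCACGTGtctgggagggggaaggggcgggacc
Bhlhe41, chr6:145865543-145865598, minus strand: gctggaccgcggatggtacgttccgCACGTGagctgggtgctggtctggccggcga
Bhlhe41 changed by -1.22 (adjusted p = 2.4e-05).

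The list medians of energy metabolism and the contractile apparatus differed by small amounts whose direction depended on the centring. Of 22 genes of fatty acid oxidation, 11 fell and 0 rose, and the median of -0.48 turned to 0.23 with the hybridization controls and 0.04 with the poly-A controls. Acot2, a mitochondrial thioesterase, had the largest fall, at -1.17 (adjusted p = 9.0e-06). Of 20 genes of the TCA cycle and pyruvate dehydrogenase, 6 fell and 0 rose, and the median of -0.34 turned to 0.37 with the hybridization controls and 0.18 with the poly-A controls. Of 35 subunits of oxidative phosphorylation, 16 fell and 0 rose as deposited, but the counts were 14 higher and 0 lower with the hybridization controls, and 2 higher and 0 lower with the poly-A controls. The median of -0.38 turned to 0.33 with the hybridization controls and 0.14 with the poly-A controls. Sarcomere genes fell in 5 of 20 and rose in 0, and the median of -0.18 turned to 0.54 with the hybridization controls and 0.34 with the poly-A controls. Tnnt2 and Tnni3, cardiac troponins, did not pass, at -0.04 (adjusted p = 0.821) and -0.18 (adjusted p = 0.377). Glycolysis gave 7 falls and 1 rise of 20, and the median of -0.04 turned to 0.68 with the hybridization controls and 0.48 with the poly-A controls. Pfkfb3, which raises the activator of phosphofructokinase, changed by -1.66 (adjusted p = 0.00191), the glucose transporter Slc2a1 by -1.21 (adjusted p = 0.00181) (not passed with the hybridization controls), and Pgam1 rose by 1.11 (adjusted p = 7.3e-04).

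**Figure D4:**
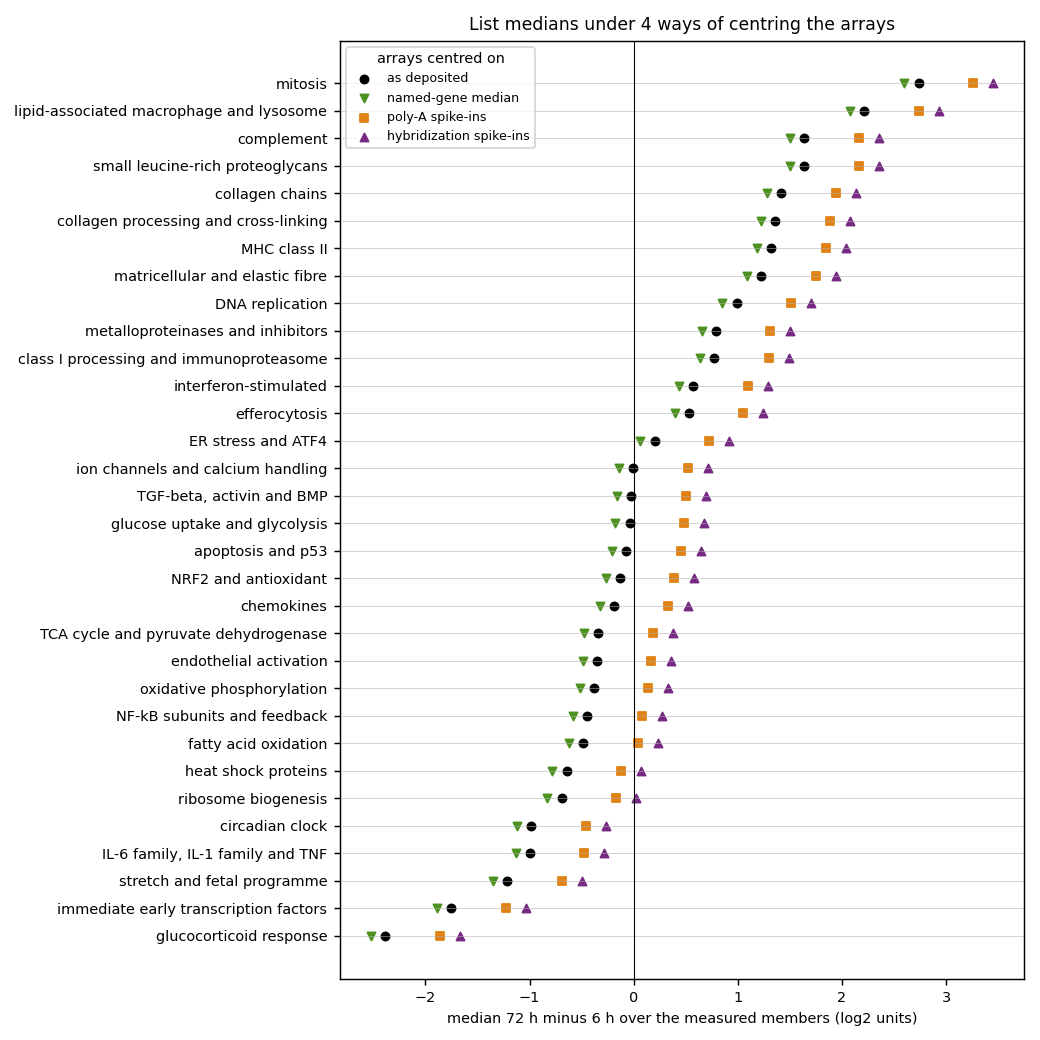
Each row is 1 of the 32 pathway lists, and the points give the median 72 h minus 6 h difference over its measured members in log2 units, with the arrays as deposited or centred on the named-gene median, the poly-A spike-ins or the hybridization spike-ins. The lists from mitosis down to ER stress and ATF4 keep a positive median and those from the circadian clock down to the glucocorticoid response a negative one under all 4, while those between cross 0.

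Ion channels and antioxidant genes had medians near 0 as deposited. Of 25 channel and calcium-handling genes, 5 rose and 2 fell, close to the shares of all genes (17.5% and 13.1%). The median of -0.01 turned to 0.71 with the hybridization controls and 0.52 with the poly-A controls. The falls were Kcna5 (-2.53 (adjusted p = 1.2e-09)) and Kcne1 (-1.32 (adjusted p = 4.5e-04)), both parts of repolarizing potassium channels. The inward rectifier Kcnj2 read 7.92, 7.88, 7.88 and 7.76 at 72 h, against 6.06, 7.45, 5.40 and 7.05 at 6 h, a difference of 1.37 ± 0.32 (SE; adjusted p = 0.00287), with a sham mean of 8.92, and Kcnq1 rose by 1.11 (adjusted p = 3.7e-04). The calcium pump Atp2a2 and its inhibitor Pln did not pass, at 0.02 (adjusted p = 0.909) and -0.01 (adjusted p = 0.98). In the list of NRF2 targets and antioxidant enzymes, 5 of 17 rose, 4 fell, and the median of -0.13 turned to 0.58 with the hybridization controls and 0.39 with the poly-A controls. The peroxidases Gpx1 and Gpx3 rose by 1.75 (adjusted p = 4.0e-07) and 1.64 (adjusted p = 9.2e-07), and thioredoxin reductase Txnrd1 changed by -1.74 (adjusted p = 7.1e-05). Hmox1, heme oxygenase 1, read 12.57, 15.11, 11.32 and 14.96 at 72 h, against 14.61, 13.92, 14.14 and 12.79 at 6 h. Replicates 21 and 23 at 72 h stood above all 6 h arrays and replicates 20 and 22 below all of them, and the difference of -0.37 ± 0.63 (SE; adjusted p = 0.697) did not pass. Replicates 21 and 23 are also the arrays with more Myl4. Without them Hmox1 was at -1.92, but they were its 2 highest arrays at 72 h. Leaving them out fixes the direction, so no call is drawn from that value.

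**Figure D5:**
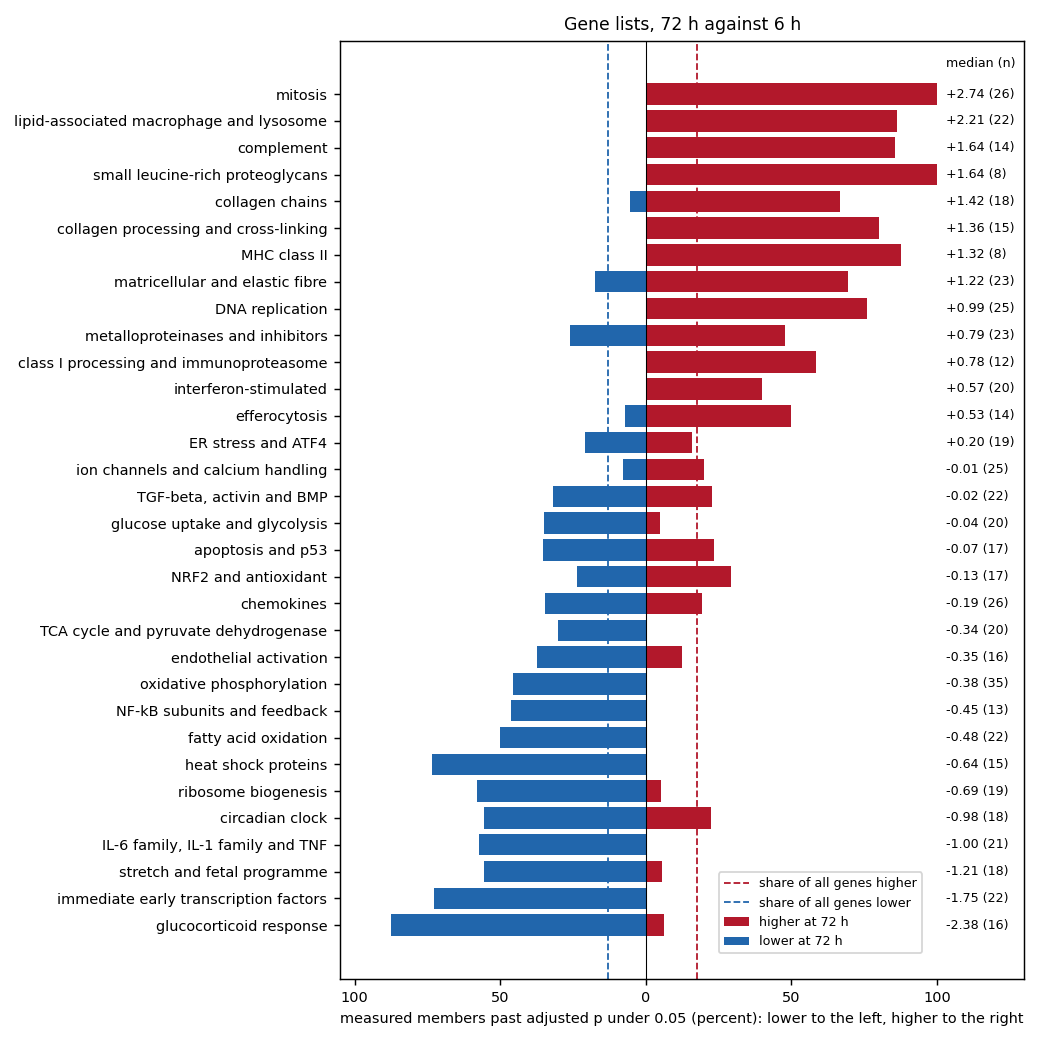
Bars give the percent of a list's measured members that were higher (red, right) or lower (blue, left) at 72 h than at 6 h at adjusted p under 0.05, for 32 pathway lists in the order of their median difference, which is printed at the right with the number of genes. The dashed lines mark 17.5% and 13.1%, the shares of all named genes that were higher and lower, and the bars of mitosis and of small leucine-rich proteoglycans cover all measured members.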

How the data were processed

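Heart RNA of 16 mouse samples was measured on Affymetrix arrays, 4 per group (72 h, 6 h and 24 h of reperfusion, and sham). The authors deposited log2 signals for 28846 probe sets on each array, made with Affymetrix Expression Console per the submitters' processing notes; no source used here gives its version, the summarization method or the log base. The array named in the series' design text is not the design that the transcript cluster identifiers belong to, and the hours in its title differ from those of the labels, which were used. No file gives scan dates or batches.

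Probe sets with 1 gene symbol in GEO's platform annotation (19572) were reduced to the one with the highest mean for each of 19505 genes. limma 3.58.1 in R 4.3.3 (lmFit, eBayes) was fitted to all 16 arrays, with 12 residual degrees of freedom, the contrast 72 h minus 6 h and Benjamini-Hochberg adjustment at 0.05. It was checked on simulated data. No pair of arrays held identical values. The 32 pathway lists and 13 marker lists (749 of 810 genes measured), and the members, were chosen with earlier results of these data known. Named were the 15 largest rises and falls without overlap of the arrays, at or above the median of all probe sets and with a proper symbol; genes fixed by name; up to 6 members of each list with the largest change, and others needed for a count or to say who did not pass. Spp1 and Cd68, fixed by name, are not analysed here. Promoters are RefSeq windows on GRCm38.p6, 1 per gene; 1 stretch per list was planned, and up to 3 are shown. The alternatives tried are in the closing section. Sequencing depth does not apply; the number of arrays limits precision.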

Additional observations from a re-analysis of the deposited data

Results flagged for a closer look

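Each gene named in the text was examined at 72 h and at 6 h for an array that stood apart from the other 3, by the gap to its neighbour as a share of the whole range of the group. A share above Dixon's critical value at 95% for 4 samples was marked. Chance marks about 1 in 20 groups of 4, and 27 of 456 groups (5.92%) were marked. The values are given without an explanation.

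On 72 h replicate 23, Adipoq read 3.03 against 3.55 to 3.62 on the other arrays of that time, a gap of 0.883 of the range. On 72 h replicate 21, Il1r2 read 6.75 against 5.20 to 5.46 on the other arrays of that time, a gap of 0.836 of the range. Marked there too were Aplnr (0.874, low) and Ccl8 (0.831, low). On 6 h replicate 7, Ifit1 read 8.80 against 6.86 to 7.02 on the other arrays of that time, a gap of 0.915 of the range. Marked there too were Rrp12 (0.889, low), Ccl2 (0.859, high), Bhlhe41 (0.947, high) and Osmr (0.882, high). On 72 h replicate 22, Per3 read 11.88 against 11.14 to 11.20 on the other arrays of that time, a gap of 0.913 of the range. Marked there too were Birc3 (0.847, low) and Psmb8 (0.838, low). On 6 h replicate 11, Mki67 read 4.99 against 6.84 to 7.20 on the other arrays of that time, a gap of 0.839 of the range. Marked there too were Errfi1 (0.968, low), Birc3 (0.925, low), Ccn1 (0.838, low), Cdkn1a (0.845, low), Il1rn (0.859, low), Gpx3 (0.884, high) and Ddx21 (0.881, high). On 6 h replicate 8, C1qc read 9.55 against 8.66 to 8.69 on the other arrays of that time, a gap of 0.967 of the range. Marked there too was Col4a2 (0.905, high). On 72 h replicate 20, Csf1r read 13.10 against 12.38 to 12.50 on the other arrays of that time, a gap of 0.832 of the range. Marked there too were Hspa1a (0.859, low), Stab1 (0.904, high) and Kcna5 (0.847, high). On 6 h replicate 10, Il6st read 14.36 against 14.47 to 14.49 on the other arrays of that time, a gap of 0.846 of the range.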

How the results depend on the processing

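As deposited, 3409 genes were higher and 2550 lower at 72 h, and 5955 genes did not overlap. Centring on the hybridization controls gave 13629 higher and 479 lower, 364 and 94 among the 606 measured genes of the pathway lists, and 12299 genes without overlap of the arrays. Centring on the poly-A controls gave 9167 and 621, with 107 list members lower, and median centring gave 4440 lower. A minimum of 2-fold left 1463 and 700, with 112 list members lower, by its construction. Testing only genes at or above the background level left 1678 lower and 3880 without overlap, from 8383 genes tested. Without replicates 21 and 23 at 72 h, 1514 genes were lower. Leaving out 1 array at a time gave 2976 to 3324 higher and 2063 to 2538 lower genes, and 6549 to 7318 without overlap, which 3 arrays against 4 reach more easily.

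Of 196 named genes that passed, 176 kept direction and call under each alternative that gave them a value, and the other 20 lost the call under at least 1. The 2-fold minimum was not applied to single genes, and a filter on low levels gives no value for the genes it removes. Without replicates 21 and 23 at 72 h the calls of Ccn3, Cd163, Cdc6, Fos, H2-Ab1, Ncr1, Npm1, Timp1, Vcam1, Ccl5, Stard10 and Tbx18 were lost. With the hybridization controls Col4a2 turned to 0.06, Ccl5 to 0.203 and Stard10 to 0.164, and among genes that had not passed Adipoq turned to 0.593, Ddr2 to 0.708, Emcn to 0.688, Hspb6 to 0.511, Mertk to 0.474, Pln to 0.711, Tnni3 to 0.536 and Tnnt2 to 0.671. Calls were gained with the hybridization controls by 12 named genes (Acta2, Atp2a2, Camp, Cd3e, Gsn, Il6st, Kdr, Ltf, Ms4a1, Myh6, Nr4a2 and Ppbp, at 0.738 to 1.433), of which all but Gsn also gained one with the poly-A controls, and with median centring by Alas2, Cdh5, Hspb6, Hspb7, Jun and Rela. Hspb7 passed too with the trend and without replicate 8 at 6 h (-0.476, adjusted p = 0.0386), and Cdh5 without replicate 11 at 6 h (-0.466, adjusted p = 0.0367). With the poly-A controls Ccl5 was at 0.011, Ddr2 at 0.516, Emcn at 0.496, Pln at 0.519 and Tnnt2 at 0.479. The constant added by centring makes these shifts; why the controls differ between the times was not tested. Quantile normalization, the mean of probe sets, the trend, robust and weighted fits and the fit to 8 arrays moved no count over all genes or over all pathway lists by more than 1.5 times, although counts of single lists moved by more, 3 of 90 with quantile normalization, 4 with the trend, 2 with array weights and 2 with the fit to 8 arrays. No paired analysis was possible because the groups share no replicate number. Genes under the background level have no firm size of change.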

Other observations

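The probe identifiers include 2634 transcript clusters that carry no gene name in the annotation used here, and these were left out of the tests above. Fitted on their own in the same way with limma and Benjamini-Hochberg adjustment over the 2634, 282 were higher at 72 h than at 6 h and 602 were lower (33.6% in either direction). The split leaned to lower levels at 72 h, whereas among named genes 3409 were higher and 2550 lower (30.6% in either direction). The difference between the splits was not tested.

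Red cell markers were measured by 3 genes and gave no call in either direction. Slc4a1, the anion exchanger of red cells, was at -0.42 (adjusted p = 0.21) and Alas2, the heme synthesis enzyme of erythroid cells, at -0.35 (adjusted p = 0.16), with levels of 7.83 at 72 h and 8.25 at 6 h for Slc4a1.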
